A study of Mus musculus with 4 samples.

Results

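The 41 genes described here encode the transcription factor NRF2 and its partners, the enzymes that make and use glutathione, the thioredoxin and peroxiredoxin system, enzymes that break down peroxide and superoxide, proteins of haem and iron handling, and the enzymes that supply NADPH. They were taken by symbol from a table of 14435 genes, and all 41 symbols matched 1 row each. RNA was sequenced in 4 libraries of RAW264.7, a long-established line of mouse macrophages, 2 labelled Control (transfected with nonspecific shRNA) and 2 labelled shMettl3 (transfected with shRNA against METTL3, the enzyme that adds the m6A mark to RNA). Every library came from cells treated with lipopolysaccharide (LPS) of E. coli for 12 hours. All 4 share the LPS, so only the difference that the knockdown makes in its presence can be read, and no response to LPS can. The labels do not give the shRNA sequences and do not say whether the cells were pooled or clonal, nor whether replicates were grown as separate cultures. The p-values therefore reflect only how far these samples spread, and that spread may be technical. Knockdown replicate 2 is named METTL4 in 1 label field and shMettl3 in its title, which was followed.

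NRF2, encoded by Nfe2l2, is held low by KEAP1, which presents it to a CUL3 ubiquitin ligase for destruction. Oxidants and electrophiles modify KEAP1, and NRF2 then accumulates, pairs with a small MAF protein such as MAFG and binds antioxidant response elements in the promoters and enhancers of its targets. Glutathione, a tripeptide, and thioredoxin, a small protein, are the main carriers of reducing power against peroxides, and both are recharged with NADPH. In macrophages these systems meet the oxidants and nitric oxide that the cells make after contact with bacteria, and haem and iron taken up from engulfed red cells.

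The library totals were between 16342313 and 17193639 estimated counts. Control libraries held 514 and 496 counts of Mettl3, against 194 and 195 with the knockdown (log2 fold change -1.42, SE 0.10, adjusted p = 1.57e-06 by edgeR), estimates that were not whole numbers. Of 10 macrophage markers, all 10 reached 1 TPM. By edgeR's test 7 were lower and 1 was higher in the knockdown, where 22.3% and 21.4% of all tested genes were. Log2 fold changes of the 10 ran from -1.79 for Adgre1 to 0.57 for Ptprc. The summed level of the 10 was 18751 to 19359 TPM in the controls and 13248 to 13324 TPM in the knockdown libraries. Of 6 fibroblast markers 4 were in the table and 0 reached 1 TPM. Their summed level was 0 to 0.05 TPM in the controls and 0.31 to 1.1 TPM in the knockdown libraries. The collagen genes Col1a1, Col1a2 and Col3a1 were at 0 in both controls. They had 17, 15 and 15 counts in knockdown replicate 1, but 1, 0 and 0 in knockdown replicate 2. Of 6 lymphocyte markers 1 was in the table, at 0.16 TPM or less. S100a8, a neutrophil marker that macrophages also express, was the 1 marker above 1 TPM of 6 for neutrophils and mast cells, whose summed level was 36.4 to 37.0 TPM in the controls and 38.9 to 39.4 TPM in the knockdown libraries. None of 4 epithelial markers matched a row of the table. The part of the changes in macrophage and fibroblast markers in the results below was not tested. In bulk libraries a lower level in each cell and fewer cells that express a gene cannot be told apart.

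Most antioxidant genes were lower in the knockdown. Levels are counts scaled to library size with TMM factors (CPM), differences are log2 fold changes of knockdown over control with their standard error (SE), and each group has n = 2. Calls rest on the quasi-likelihood test of edgeR, with p adjusted by Benjamini and Hochberg's method over 11035 tested genes and a threshold of 0.05. Of the 41 genes 39 were tested, and Nqo1 and Mgst1 were below the filter on low counts. Of the 39, 30 were called in either direction, where 43.7% of all tested genes were. 26 fell, or 66.7%, where 22.3% of all tested genes fell. 4 rose, or 10.3%, where 21.4% of all tested genes rose, and 9 were not called. The median log2 fold change was -0.27 over the 39 and 0.014 over all tested genes. For 30 of them both knockdown libraries lay below both controls, against 36.3% of all tested genes, and for 6 both lay above, against 37.1%.

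A second test asked for a change beyond 1.5-fold, and 10 of the 39 genes passed it, where 8.63% of all tested genes did. 9 of the 39 genes were called lower by it, where 4.87% of all tested genes were, and 1 was called higher, where 3.76% were. The 9 were Slc7a11, Blvrb, Prdx1, Hmox1, Gstm1, Txnrd1, Pgd, G6pdx and Cat, and the 1 was Mgst3. Cat lost this call without knockdown replicate 1 (adjusted p = 0.243 by edgeR) and without knockdown replicate 2 (0.118) and with library size alone, and Mgst3 without control replicate 2 (0.0561) and without knockdown replicate 1 (0.126). Without control replicate 1 the number called lower was 12, with Gclm, Gsr and Srxn1 added.

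The number of small falls depends on the scaling. With library size alone 18 of the 39 fell and 5 rose (16.6% and 29.6% of all tested genes), and in a limma fit on the authors' TPM 18 fell and 6 rose (13.7% and 32%). TPM moves the median of all genes by 0.13, so the values below are relative to the TMM scale. 9 calls, all with a log2 fold change of at most 0.33 in size, were lost when 1 library was left out, and they are named with their groups below.

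**Figure D1:**
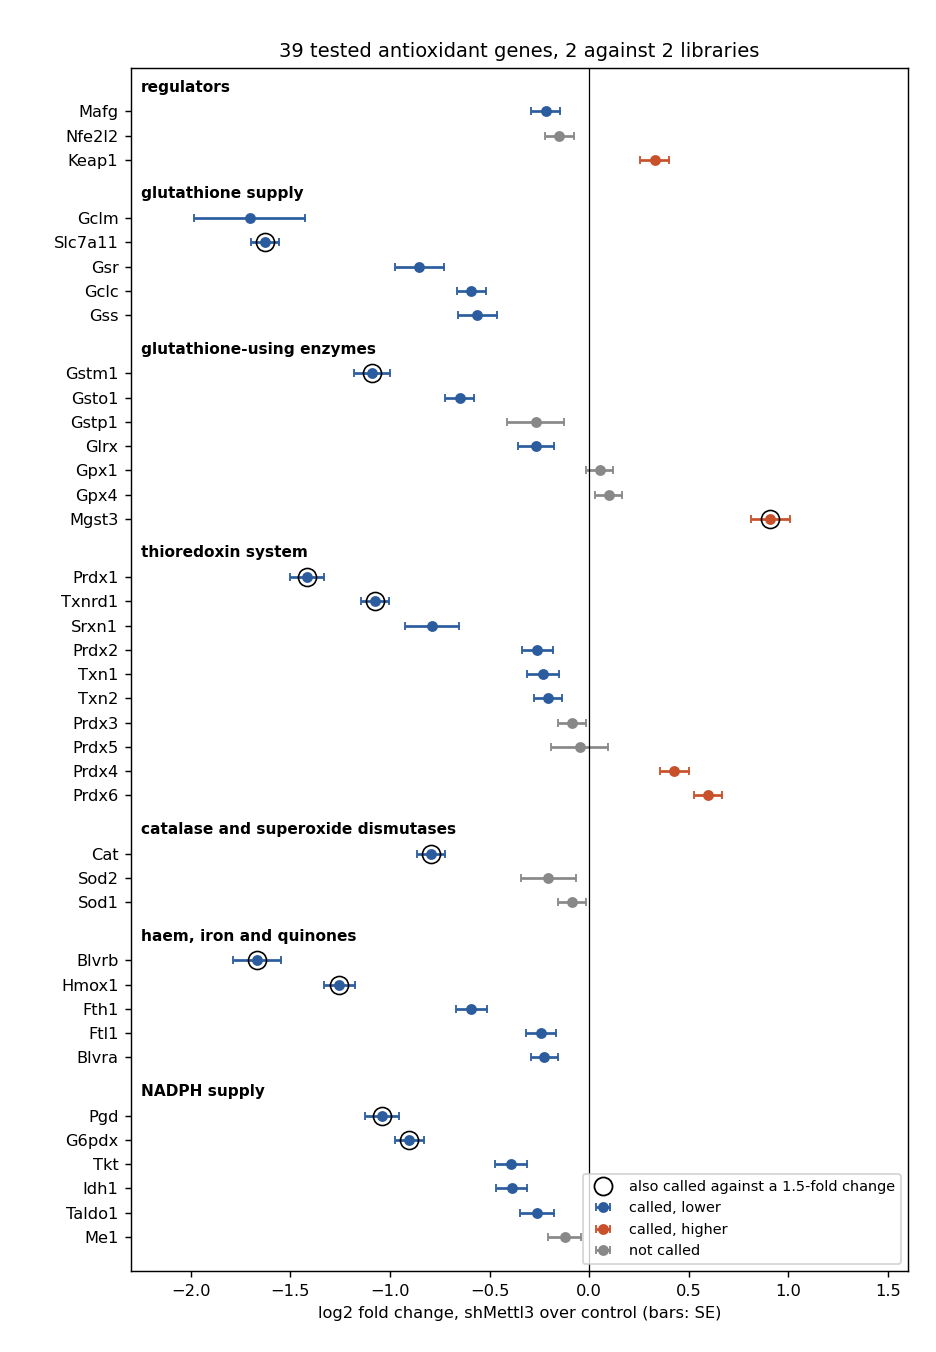
Log2 fold change of knockdown over control (x axis) for the 39 tested genes, grouped by role. Points are edgeR estimates from 2 against 2 libraries, bars are SE, colours mark the call, and an open ring marks a call against a 1.5-fold change. The 5 glutathione supply genes and the 5 tested haem and iron genes all lie left of 0, while Mgst3, Prdx6, Prdx4 and Keap1 are the called genes to the right.

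**Figure D2:**
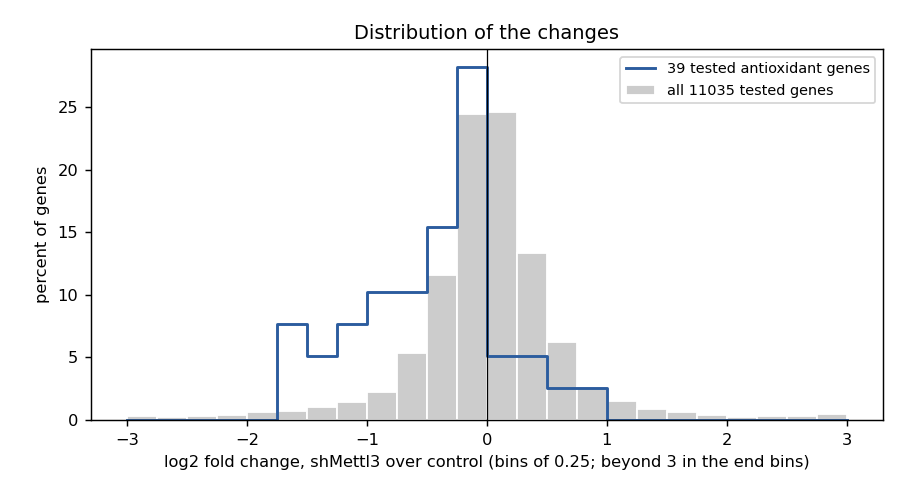
Share of genes (y axis, percent) in bins of log2 fold change (x axis, bins of 0.25), as grey bars for all 11035 tested genes and as a blue line for the 39 tested antioxidant genes. The median of the 39 is -0.27 and that of all genes 0.014.

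The promoters of these genes were searched for the core of the antioxidant response element, which is the sequence NRF2 is known to bind with a small MAF protein. The letters searched were TGACNNNGC, on both strands, in the 300 bases from 250 before to 50 after each RefSeq start (GRCm38.p6, a later build than the mm9 in the submitters' notes). 37 of the 41 genes matched the promoter table, and Gclc, Gsr, Hmox1 and Prdx6 did not. 12 of the 37, or 32.4%, held at least 1 match, where 14.0% of all 27025 genes in that table did. Per window the shares were 24.0% of 50 and 12.4% of 32851. The matches are shown because they let the sequence be set beside the change of each gene. Each is printed 5′ to 3′ on the strand that reads the motif, with the 9 motif bases in capitals and 8 bases on each side.
Blvra (chr2:127070600-127070624): cggagcctTGACCGAGCaattcccg
G6pdx (chrX:74428921-74428945): gtgtgcttTGACTGAGCtgacccgc
Gclm (chr3:122245415-122245439): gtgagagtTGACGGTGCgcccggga
Mafg (chr11:120633753-120633777): cgccgggtTGACCGTGCtcctgcag
Me1 (chr9:86695904-86695928): tgccgccgTGACTCAGCgcttctcg
Mgst1 (chr6:138140463-138140487): ccgcctccTGACCGTGCcaagcccc
Nfe2l2 (chr2:75704887-75704911): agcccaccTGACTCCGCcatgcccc
Pgd (chr4:149166063-149166087): ttcagagcTGACATTGCactgatcg
Prdx1 (chr4:116685458-116685482): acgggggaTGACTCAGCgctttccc
Sod1 (chr16:90220698-90220722): cctgagtcTGACCACGCccaccttg
Srxn1 (chr2:152105544-152105568): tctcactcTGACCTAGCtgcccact
Txnrd1 (chr10:82859106-82859130): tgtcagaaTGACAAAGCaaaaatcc
Of the 11 tested genes with a match 8 fell, 0 rose and 3 were not called, with a median log2 fold change of -0.79. Of the 24 tested genes without one 15 fell, 3 rose and 6 were not called, with a median of -0.26. Against a 1.5-fold change 4 genes with a match were called lower, and 4 without one. Among all tested genes 22.3% fell, 21.4% rose and 4.87% were called lower beyond 1.5-fold. The shares of all tested genes were not split by match, so the contrast of the groups has no background beside it. Gclc, Gsr and Hmox1, which fell, and Prdx6, which rose, are in neither group. These counts are a description, and a match is not evidence of a bound site. The core in Prdx1 and Me1 is the same, TGACTCAGC, and its first bases, TGACTCA, are also the motif of AP-1. Both genes carry these letters, and Prdx1 fell by 1.42 on the log2 scale while Me1 was not called, at -0.12. The matches lay at different distances, 133 bases before the start in Prdx1 and across the start in Me1, with the first base 6 bases before it.

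The 250 bases before the start are given for 3 genes that passed the test against a 1.5-fold change and hold a match there, the peroxiredoxin gene Prdx1, the thioredoxin reductase gene Txnrd1 (1 of its 3 annotated starts) and G6pdx of the pentose phosphate pathway. They are printed 5′ to 3′ on the strand of the gene, ending at the base before the start, with the match in capitals. In all 3 it lies on the opposite strand and so reads as its reverse complement.
Prdx1 (chr4:116685349-116685598, plus strand): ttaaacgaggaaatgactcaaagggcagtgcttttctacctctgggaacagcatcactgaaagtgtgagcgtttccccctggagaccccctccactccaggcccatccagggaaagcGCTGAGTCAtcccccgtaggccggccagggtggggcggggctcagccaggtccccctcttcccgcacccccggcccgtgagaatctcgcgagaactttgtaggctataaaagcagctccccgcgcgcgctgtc
Txnrd1 (chr10:82858956-82859205, plus strand): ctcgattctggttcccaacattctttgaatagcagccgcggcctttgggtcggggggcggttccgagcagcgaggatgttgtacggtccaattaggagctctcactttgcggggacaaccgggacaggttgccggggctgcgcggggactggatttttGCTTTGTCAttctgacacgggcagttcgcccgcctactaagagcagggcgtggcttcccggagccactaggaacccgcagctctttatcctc
G6pdx (chrX:74428881-74429130, minus strand): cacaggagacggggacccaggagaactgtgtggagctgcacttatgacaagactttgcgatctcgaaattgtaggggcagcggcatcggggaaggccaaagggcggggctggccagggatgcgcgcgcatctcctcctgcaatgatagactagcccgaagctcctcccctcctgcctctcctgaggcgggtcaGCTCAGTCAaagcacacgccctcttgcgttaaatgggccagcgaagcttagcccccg

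The genes that encode the regulators moved little. Nfe2l2 (Entrez gene 18024) had 204 and 189 CPM in the controls and 181 and 173 CPM in the knockdown libraries. Both knockdown values were below both controls, but the difference was close to the gap within a group, and the test made no call (log2 fold change -0.15, SE 0.07, adjusted p = 0.119 by edgeR). It was called without control replicate 2 (-0.21, adjusted p = 0.0256 by edgeR). Keap1 (Entrez gene 50868), whose product restrains NRF2, had 114 and 107 CPM against 143 and 134 CPM. The groups did not overlap, and Keap1 rose by 1.26-fold (log2 fold change 0.33, SE 0.07, adjusted p = 0.00356 by edgeR), a call lost without knockdown replicate 1 (adjusted p = 0.0704). Mafg, the small MAF partner, fell slightly (-0.22, SE 0.07, adjusted p = 0.0282 by edgeR). Its call was lost without control replicate 2 (0.0511), when either knockdown library was left out (0.23 without replicate 1 and 0.187 without replicate 2), and with library size, FPKM or TPM as the scale. RNA levels do not measure the NRF2 protein, which is controlled mainly by its stability.

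All 5 genes of glutathione supply fell, where 22.3% of all tested genes did. Slc7a11 (Entrez gene 26570), the light chain of the transporter that exchanges glutamate for cystine, the source of the cysteine in glutathione, had 472 and 485 CPM in the controls. It had 153 and 157 CPM in the knockdown libraries. The controls lay within 1.03-fold of each other, and the knockdown was 3.09-fold lower (log2 fold change -1.63, SE 0.07, adjusted p = 5.83e-08 by edgeR). Gclm (Entrez gene 14630), the modifier subunit of glutamate-cysteine ligase, which carries out the first and limiting step of synthesis, had 243 and 359 CPM against 81.7 and 103 CPM. Its point estimate is the lowest of the 39 (-1.71, SE 0.28, adjusted p = 0.0254 by edgeR), but the controls differed by 1.48-fold, and Gclm did not pass the test against a 1.5-fold change (adjusted p = 0.123). It passed that test without control replicate 1 (0.00113), without control replicate 2 (0.011) and in edgeR without robust fitting (0.00144). Gclc (Entrez gene 14629), the catalytic subunit of the same ligase, fell as well, with 71.3 and 74.3 CPM against 48.3 CPM in both knockdown libraries (-0.59, SE 0.07, adjusted p = 7.36e-05 by edgeR). Gclm transcripts outnumbered Gclc transcripts by 5.80 and 8.24 to 1 in the controls and by 2.83 and 3.61 to 1 in the knockdown libraries, as a ratio of TPM. Gss, the synthetase of the second step, fell by 0.56 (SE 0.10), and Gsr, which regenerates glutathione from its oxidised form with NADPH, fell by 0.85 (SE 0.12), both on the log2 scale. Gsr had 142 and 186 CPM in the controls and 91.3 and 90.5 CPM in the knockdown libraries, so its spread came from the controls. The Gclm call was lost with no filter on low counts (adjusted p = 0.0609 by edgeR).

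Of the 7 tested enzymes that use glutathione, 3 fell, 1 rose and 3 were not called. Of all tested genes 22.3% fell and 21.4% rose. Gstm1 (Entrez gene 14862), a glutathione transferase of the mu class, had 71.8 and 61.4 CPM in the controls and 31.4 and 31.2 CPM in the knockdown libraries. That is 2.13-fold lower (log2 fold change -1.09, SE 0.09, adjusted p = 4.79e-06 by edgeR). Gsto1, a transferase of the omega class, fell by 0.65 (SE 0.07). Mgst3 (Entrez gene 66447), a microsomal enzyme with transferase and peroxidase activity, went the other way, with 28.2 and 24.2 CPM against 51.6 and 46.8 CPM. The groups were well apart, and Mgst3 had the largest rise of the 39 genes, 1.88-fold (log2 fold change 0.91, SE 0.10, adjusted p = 2.79e-05 by edgeR). The other microsomal gene of the 41, Mgst1, had too few reads for a comparison. It was covered by 2 and 4 reads in control libraries and by 2 and 0 in knockdown libraries. Mgst2, a related gene outside the 41 that was named after its values were seen, fell (-0.81, SE 0.17, adjusted p = 0.00249 by edgeR). It did not pass the test against a 1.5-fold change (adjusted p = 0.272).

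Neither of the glutathione peroxidase genes was called. Gpx1 (Entrez gene 14775), which reduces hydrogen peroxide, had 198 and 201 CPM against 209.9 and 204 CPM (log2 fold change 0.052, SE 0.07). Gpx4 (Entrez gene 625249), which reduces lipid peroxides in membranes, had 154 CPM in both controls against 169 and 161 CPM (0.098, SE 0.07). The adjusted p of edgeR was 0.575 for Gpx1 and 0.277 for Gpx4. Both rose in the fit on TPM (adjusted p = 0.0463 and 0.0232 by limma), as did Gpx4 with library size alone, so a small rise depends on the scale. Gstp1, the pi class transferase, was not called (-0.27, SE 0.14), was called without control replicate 1 (-0.42, adjusted p = 0.0276 by edgeR), and had counts that were not whole, so its reads may be shared with a near-identical copy and its level is uncertain. Glrx, the glutaredoxin that removes glutathione from proteins, fell slightly (-0.27, SE 0.09, adjusted p = 0.0332 by edgeR). Its call was lost without control replicate 1 (0.12), when either knockdown library was left out (0.0734 without replicate 1 and 0.23 without replicate 2) and with library size, FPKM or TPM as the scale.

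In the thioredoxin system 6 of 10 genes fell, 2 rose and 2 were not called, where 22.3% of all tested genes fell and 21.4% rose. Txnrd1 (Entrez gene 50493), the cytosolic reductase that recharges thioredoxin with NADPH, had 787 and 849 CPM in the controls and 387 and 389 CPM in the knockdown libraries. It was 2.11-fold lower (log2 fold change -1.07, SE 0.07, adjusted p = 9.63e-07 by edgeR). The cytosolic thioredoxin gene Txn1 and the mitochondrial Txn2 had log2 fold changes of -0.23 (SE 0.08) and -0.21 (SE 0.07), with adjusted p = 0.033 and 0.0324 by edgeR. Both calls were lost without knockdown replicate 1 (0.268 and 0.229) and without knockdown replicate 2 (0.12 and 0.229) and on the scales of library size, FPKM and TPM, that of Txn1 also without control replicate 2 (0.105) and that of Txn2 also in DESeq2. Srxn1 (Entrez gene 76650), the sulfiredoxin that repairs overoxidised peroxiredoxins, had 287 and 375 CPM against 179.6 and 204 CPM. It fell (-0.79, SE 0.14, adjusted p = 0.00453 by edgeR) but did not pass the test against a 1.5-fold change (adjusted p = 0.244).

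The 6 peroxiredoxins, which reduce peroxides with electrons from thioredoxin or, for Prdx6, mainly from glutathione, moved in both directions. Prdx1 (Entrez gene 18477), a cytosolic member, had 3736 and 4462 CPM in the controls and 1563 and 1507 CPM in the knockdown libraries. It fell by 2.67-fold (log2 fold change -1.42, SE 0.09, adjusted p = 1.19e-06 by edgeR). By TPM its rank among all genes of the table was 17 and 13 in the controls, against 86 and 87 with the knockdown. Prdx1 made up 80.4% and 81.3% of the summed peroxiredoxin TPM in the controls, against 60.6% and 60.9% with the knockdown, while that sum went from 5642 and 6453 TPM to 3372 and 3262 TPM. Prdx2, also cytosolic, had a log2 fold change of -0.26 (SE 0.08, adjusted p = 0.0196 by edgeR), a call lost when either knockdown library was left out (0.0756 without replicate 1 and 0.239 without replicate 2) and with library size, FPKM or TPM. Prdx4, the member in the endoplasmic reticulum, rose (0.43, SE 0.07, adjusted p = 8.22e-04 by edgeR), from 54.3 and 55.8 CPM to 76.7 and 71.4 CPM. Prdx6 rose (0.60, SE 0.07, adjusted p = 5.69e-05 by edgeR), from 194 and 199 CPM to 301 and 293 CPM. Prdx3 (Entrez gene 11757), the mitochondrial member, had 116 and 113 CPM against 111 and 105 CPM and was not called (-0.086, SE 0.07, adjusted p = 0.341 by edgeR). Its sign turned with library size (0.00892) and TPM (0.0495). Prdx5, found in mitochondria, peroxisomes and cytosol, was not called (-0.049, SE 0.14), its controls differed by 1.34-fold, and its value was -0.26 without control replicate 1, where it was called (adjusted p = 0.0079 by edgeR), and 0.18 without control replicate 2.

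**Figure D3:**
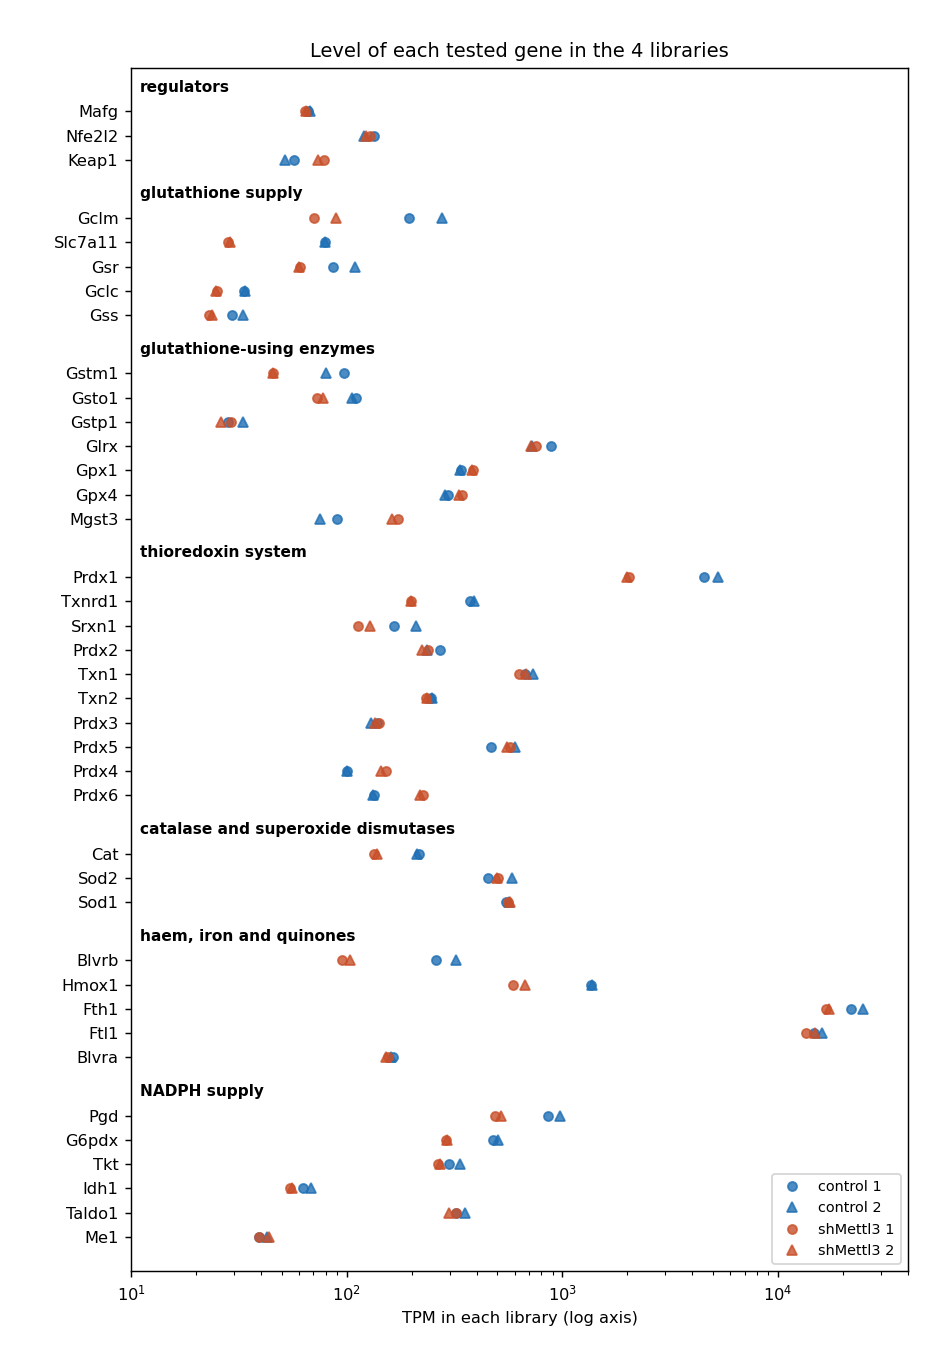
TPM, a level per transcript length (x axis, log scale), of each of the 39 tested genes in each library, in blue for the controls and orange for the knockdown, with circles for replicate 1 and triangles for replicate 2. Fth1 and Ftl1 lie far to the right of all others, and for Prdx1, Hmox1, Slc7a11 and Pgd the blue and orange points are clearly apart.

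Catalase fell while the superoxide dismutases were not called. Cat (Entrez gene 12359), the peroxisomal enzyme that splits hydrogen peroxide, had 339 and 342 CPM in the controls and 193 and 199.8 CPM in the knockdown libraries. The 2 libraries of each group were close, and the fall was 1.73-fold (log2 fold change -0.79, SE 0.07, adjusted p = 8.06e-06 by edgeR). Sod1 (Entrez gene 20655), the cytosolic copper-zinc enzyme that turns superoxide into peroxide, had 176 and 187 CPM against 173 and 169 CPM (-0.085, SE 0.07, adjusted p = 0.353 by edgeR), and its sign turned with library size (0.00988) and TPM (0.0292). Sod2, the mitochondrial manganese enzyme, which LPS is known to induce, had 1080.2 and 1445 CPM against 1099.7 and 1092 CPM. The groups overlapped, and Sod2 was not called (-0.20, SE 0.14, adjusted p = 0.289 by edgeR). It was -0.41 without control replicate 1 (adjusted p = 2.22e-04 by edgeR) and 0.0180 without control replicate 2, so the value rests on which control is used.

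All 5 tested genes of haem and iron handling fell, where 22.3% of all tested genes did. Hmox1 (Entrez gene 15368), haem oxygenase 1, which opens haem and releases iron, carbon monoxide and biliverdin, had 1258 and 1309 CPM in the controls and 506 and 570.1 CPM in the knockdown libraries. It was 2.38-fold lower (log2 fold change -1.25, SE 0.08, adjusted p = 5.16e-07 by edgeR). The 2 biliverdin reductase genes are Blvrb and Blvra. Blvrb (Entrez gene 233016), which also reduces flavins, had 119.9 and 153 CPM against 41.6 and 44.4 CPM (-1.67, SE 0.12, adjusted p = 2.91e-05 by edgeR). Blvra had a log2 fold change of -0.23 (SE 0.07, adjusted p = 0.0194 by edgeR), a call that did not hold when either knockdown library was left out (0.117 without replicate 1 and 0.204 without replicate 2), in DESeq2 and with library size, FPKM or TPM. The TPM ratio of Blvrb to Blvra was 1.58 and 1.99 in the controls, against 0.614 and 0.688 with the knockdown, so the more abundant of the pair was not the same in both groups.

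Ferritin stores iron in a shell of heavy chains (Fth1), which oxidise it, and light chains (Ftl1). By TPM Fth1 ranked first of all genes in both controls and second in both knockdown libraries, and Ftl1 had rank 3 in all 4. Together they held 3.64% and 4.09% of all TPM in the controls, against 3.02% and 3.20% with the knockdown. Fth1 fell from 11191 and 13160.5 CPM to 8064 and 8098 CPM (-0.59, SE 0.08, adjusted p = 1.61e-04 by edgeR). Ftl1 had 7769.6 and 8784 CPM against 6741 and 7255 CPM (-0.24, SE 0.07, adjusted p = 0.0211 by edgeR). Its call was lost on leaving out control replicate 2 (0.129) or knockdown replicate 1 (0.173) and with library size, FPKM or TPM, and its counts were not whole, so its reads may be shared with related copies and its level is uncertain. The TPM ratio of heavy to light chain was 1.49 and 1.55 in the controls, against 1.24 and 1.16 with the knockdown. Ferritin is also controlled at translation by iron, which these libraries do not measure. Nqo1 (Entrez gene 18104), a quinone reductase often used to read NRF2 activity, was covered by 8 and 10 reads in control libraries and by 3 and 1 in knockdown libraries, below the filter, and so was not tested. At no more than 0.64 TPM in any library its level was below that of all 39 tested genes.

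**Figure D4:**
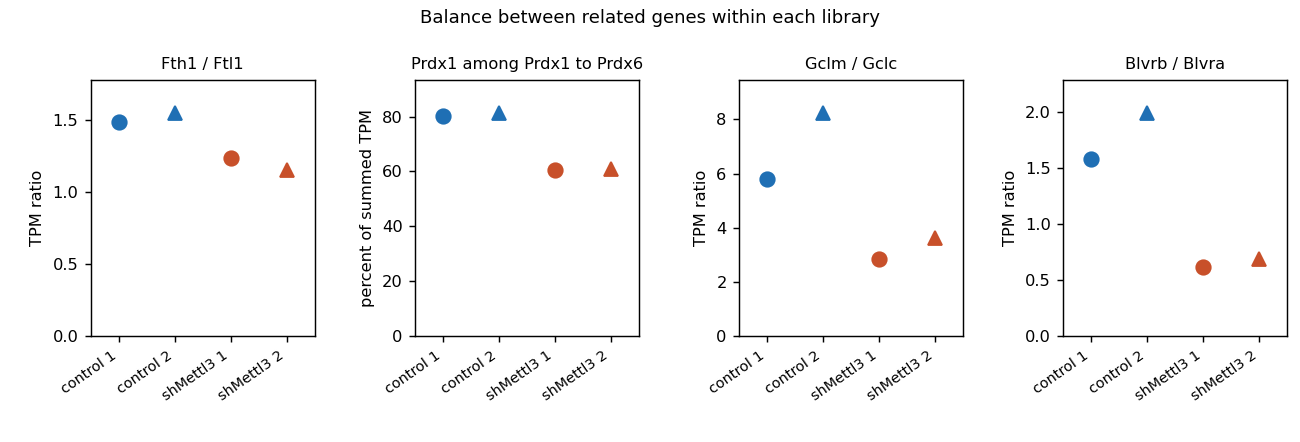
Ratio of TPM between related genes, or share of summed peroxiredoxin TPM (y axes, from 0), in each of the 4 libraries (x axis). In each panel the 2 controls (blue) lie above the 2 knockdown libraries (orange), as for Fth1 to Ftl1 with 1.49 and 1.55 against 1.24 and 1.16.

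Of the 6 genes of NADPH supply 5 fell, where 22.3% of all tested genes did. The genes for the oxidative steps of the pentose phosphate pathway, the ones that make NADPH, had the lowest log2 fold changes of the 6. G6pdx (Entrez gene 14381), the glucose-6-phosphate dehydrogenase that commits glucose to the pathway, had 765 and 834 CPM in the controls and 425 and 431 CPM in the knockdown libraries. It fell by 1.87-fold (log2 fold change -0.90, SE 0.07, adjusted p = 3.75e-06 by edgeR). Pgd (Entrez gene 110208), the dehydrogenase of the second NADPH step, had 1056 and 1233 CPM against 537 and 576 CPM (-1.04, SE 0.09, adjusted p = 5.49e-06 by edgeR). Transketolase (Tkt) and transaldolase (Taldo1), which shuffle sugars back to glycolysis and make no NADPH, had log2 fold changes of -0.39 (SE 0.08) and -0.26 (SE 0.08), with adjusted p = 0.00256 and 0.0256 by edgeR. The Taldo1 call was lost without control replicate 2 (0.0775), when either knockdown library was left out (0.0718 without replicate 1 and 0.266 without replicate 2) and with library size, FPKM or TPM. Idh1, the cytosolic isocitrate dehydrogenase, fell by 0.39 (SE 0.08) on the log2 scale. Me1 (Entrez gene 17436), malic enzyme, another source of NADPH, had 78.6 and 88.2 CPM against 72.5 and 80.6 CPM. Its groups overlapped and it was not called (-0.12, SE 0.08, adjusted p = 0.257 by edgeR), with a turned sign on the TPM scale (0.0190) and a call without control replicate 1 (-0.21, adjusted p = 0.036 by edgeR).

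Among 10 genes often used as NRF2 targets (Slc7a11, Gclc, Gclm, Hmox1, Nqo1, Txnrd1, Srxn1, G6pdx, Pgd and Me1), 8 of 9 tested fell and 0 rose, with Me1 not called, and 5 of 9 were called lower against a 1.5-fold change. Their median log2 fold change was -1.04, against -0.27 over the 39. The 10 were chosen with earlier results of these data known, so these shares depend on the choice. All 4 genes of the 39 that rose lie outside the 10. Of all tested genes 22.3% fell, 21.4% rose and 4.87% were called lower beyond 1.5-fold. Libraries of the same group also differed from each other in these genes. Of the 39 tested genes 31 had a higher CPM in control replicate 2 than in control replicate 1, where 50.6% of all tested genes did, and all 9 tested NRF2 targets were among them. Within the knockdown, replicate 2 was above replicate 1 for 8 of the 9 targets, for 18 of the 39 genes and for 5706 of all 11035 tested genes. The gap between the controls was widest for Gclm (1.48-fold), Prdx5 and Sod2 (1.34-fold each), Gsr (1.31-fold) and Srxn1 (1.30-fold). Without control replicate 2 the log2 fold changes were -1.40 for Gclm, -0.65 for Gsr and -0.59 for Srxn1, and without control replicate 1 they were -1.97, -1.04 and -0.98. The part of these gaps in the comparison was not tested.

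A wider list of 80 other genes of NRF2 control, glutathione, thioredoxin and NADPH metabolism had 70 symbols in the table, of which 63 were tested. Of these 26 fell and 16 rose by edgeR, 41.3% and 25.4%, where 22.3% and 21.4% of all tested genes did, and 10 were called lower and 1 higher against a 1.5-fold change, where 4.87% and 3.76% of all tested genes were. Their median log2 fold change was -0.16. Without knockdown replicate 1 the counts were 17 and 8, without knockdown replicate 2 they were 20 and 9, and DESeq2 called 21 and 10. The called genes with a log2 fold change of at least 1 in size were Slc48a1, a haem transporter of the endosome and lysosome (-1.81, SE 0.12), the aldo-keto reductase gene Akr1b8 (-1.80, SE 0.16) and Gstt1, a transferase of the theta class (-1.71, SE 0.34). Abcc1, an exporter of glutathione conjugates (-1.56, SE 0.08), the metallothionein gene Mt2 (-1.43, SE 0.08), H6pd, which makes NADPH in the endoplasmic reticulum (-1.22, SE 0.08), and Osgin1 (-1.06, SE 0.10) completed those that fell. Chac1, which breaks glutathione down, rose from 25 and 17 counts to 43 and 49 (1.08, SE 0.28, adjusted p = 0.0094 by edgeR). It did not pass the test against a 1.5-fold change (adjusted p = 0.151 by edgeR). The 1 gene called higher by that test was Nnt (0.83, SE 0.09, adjusted p = 0.0338 by edgeR).

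5 further genes of the wider list were chosen after their values were seen. Slc3a2, the heavy chain that pairs with Slc7a11, fell by 0.90 (SE 0.08, with counts that were not whole), and Sqstm1, whose product p62 binds KEAP1, by 0.88 (SE 0.08), both on the log2 scale. Cul3, the ubiquitin ligase scaffold that works with KEAP1, rose (0.37, SE 0.07), as did the small MAF gene Mafk (0.50, SE 0.08). Bach1, a repressor of the same promoter elements, had 34.0 and 37.7 CPM in the controls and 31.3 CPM in both knockdown libraries, and was not called (-0.20, SE 0.09, adjusted p = 0.0904 by edgeR).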

How the data were processed

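RNA was measured by sequencing in 4 libraries, grouped by title into 2 controls and 2 knockdowns. Per the labels' protocols, cDNA primed on poly(A) was amplified by PCR and sequenced as single-end reads, with no step named that marks strand. The authors deposited estimated counts per gene, not normalized, which are not whole for 12.5% of genes (beyond 0.005 in at least 1 library). They also deposited FPKM (scaled to length and library size) and TPM values, per the file headers. The submitters' processing notes list RSEM 1.2.12, Bowtie2 2.2.5, HISAT2 2.0.4 and the build mm9, with no role given, and the annotation is not given in the sources used here. 0 columns belong to other samples.

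Counts were rounded and tested with edgeR 4.0.16 (R 4.3.3, robust quasi-likelihood, TMM, filterByExpr with minimum count 10 and minimum total 15), keeping 11035 of 14435 genes. SE was taken as the absolute log2 fold change divided by the root of the F statistic. The test against 1.5-fold is glmTreat. Alternatives were library size or RLE scaling, no filter or a mean of 5 CPM, DESeq2 1.42.0, limma 3.58.1 on log2(FPKM + 1), log2(FPKM + 0.1) and log2(TPM + 1), edgeR without robust fitting, each library left out, and a replicate block. The scripts were tested on simulated data. Replicates differed by more than sampling noise, with chi-square over degrees of freedom of 11.7 between controls and 4.25 between knockdowns.

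The genes and lists were chosen with earlier results of these data known. Values in every library are given for genes called against 1.5-fold, Nfe2l2, Keap1, the named NRF2 targets and the 4 genes not called with the smallest SE, and for some others beside their group. Genes of the wider list are named when called with a log2 fold change of at least 1 in size. Some others were named after their values were seen. Mettl3 is reported as the target. Promoter sequences come from RefSeq (GRCm38.p6). The reads carry no molecular identifiers.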

Additional observations from a re-analysis of the deposited data

How the results depend on the processing

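Over 14 alternatives, 20 of the 30 called antioxidant genes kept their call and direction in every one, 10 lost the call in at least 1, and 0 turned sign. The count that fell was 26, and 18 with library size, FPKM or TPM. With 1 library left out it lay between 18 and 29, and the count that rose between 3 and 4. Against a 1.5-fold change 8 to 12 fell and 0 to 1 rose with 1 library left out. Over all genes 2360 rose and 2466 fell, or 1481 to 2561 and 1589 to 2745 with 1 library left out, and 1516 fell with TPM. The share of calls that rose was 48.9% with TMM, 64% with library size, 63.1% with FPKM and 70% with TPM. In the wider list 16 rose and 26 fell, 8 to 14 and 17 to 27 with 1 library left out, and 10 rose in DESeq2. 5 genes that were not called turned sign. These were Prdx3 (library size 0.00892, TPM 0.0495), Prdx5 (library size 0.0466, FPKM 0.0276 with pseudocount 1 and 0.0277 with 0.1, TPM 0.0827, with 1 library left out -0.256 to 0.18), Sod1 (library size 0.00988, TPM 0.0292), Sod2 (with 1 library left out -0.409 to 0.0180) and Me1 (TPM 0.0190). The cause was not tested. The labels do not say what a replicate number shares, and same-numbered deviations correlated at 0.174 across genes. With the replicate block 26 antioxidant genes fell and 4 rose, as without it, and 12 in place of 9 fell beyond 1.5-fold, with Gclm (adjusted p = 4.87e-06 by edgeR), Gsr (0.0302) and Srxn1 (0.0376) added. A fit without 1 library takes its spread from the other group, so the lone sample is assumed to vary like it. Depth limits Nqo1 and Mgst1, with at most 10 counts in a library.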

Other observations

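The phagocyte NADPH oxidase makes superoxide with NADPH, so it draws on the same cofactor as the antioxidant enzymes. Cybb, which encodes its catalytic membrane subunit, had 1444 and 1677 CPM in the controls and 674 and 657 CPM in the knockdown libraries, and fell by edgeR's test (log2 fold change -1.23, SE 0.08), as 22.3% of all tested genes did. Cyba, its membrane partner, had a log2 fold change of -0.32 (SE 0.08), Ncf4, a cytosolic subunit, of -0.63 (SE 0.08) and the GTPase gene Rac2 of -0.58 (SE 0.08), all called. Ncf1, another cytosolic subunit, was not called, with 314 and 312 CPM against 310.4 and 308 CPM (-0.02, SE 0.07). Cybb was named by the rule for named genes, and the other genes were named after their values were seen.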
